A study of Oryza sativa Indica Group with 36 samples.

Results

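Rice leaves that overexpress OsPRR37 were compared between noon (12:00) and midnight (0:00) across all genes. The comparison used 6 of the 36 libraries of the series, chosen by title and sampling hour: 3 of the overexpression line (OE) at 12:00 and 3 at 0:00. OE is a line of the indica cultivar Guangluai4 (GL) that overexpresses OsPRR37, and the design text names a single such line, OsPRR37-OE5. Effects of OsPRR37 therefore cannot be told apart from other differences of that line, and the sources used here do not state which promoter drives the transgene. The 6 GL libraries of the same hours served only to show where the day to night difference of OE departed from that of its parent. All plants were 45-day seedlings grown under natural long days, and the tissue was the uppermost fully expanded leaf. The design text calls the 3 libraries per group biological repeats. The labels do not say that a replicate number stands for shared plants or a shared harvest. The p-values rest on the spread between libraries of the same group, estimated over all 36 libraries together.

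The plant clock is a set of regulators that act on each other in loops, and in Arabidopsis LHY acts in the morning, the pseudo-response regulators follow through the day, and ELF3 and LUX act in the evening. OsPRR37 is a rice member of the pseudo-response regulators and is known to delay flowering in long days. Genes of light harvesting, chlorophyll and starch are known targets of light and of the clock in leaves.

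Total counts of the 6 OE libraries ran from 10952030 to 15769659, within the range of 8065894 to 15769659 over all 36 libraries. Replicates differed beyond sampling noise: the chi-square per gene was 35.6 to 51.5 in the 4 pairs with replicate 1, and 9.05 and 19.4 between replicates 2 and 3 at noon and at midnight. Replicate 1 stood apart in the markers of developing secondary wall: the summed level of OsCesA4, OsCesA7 and OsCesA9 at noon was 21.4 CPM (counts scaled to the library's effective size) in replicate 1, 6.02 in replicate 2 and 1.54 in replicate 3. The midnight sums were 21.7, 13.9 and 6.29 CPM in the same order, so the groups overlapped. The part of this in the results was not tested, and values from replicates 2 and 3 alone are given where a call differed. The tissue label was met by leaf genes, with a mean of 15483 FPKM (fragments scaled to gene length and library size) at noon for RBCS2, a small subunit of Rubisco. The shoot meristem genes OSH1 and OSH15 had 0 counts in all 6 libraries.

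Of 21772 genes tested, 8889 (40.8%) differed between noon and midnight in OE by edgeR's quasi-likelihood F test at an adjusted p under 0.05. They divided almost evenly, with 4400 genes (20.2%) higher at noon and 4489 (20.6%) lower. A difference of at least 2-fold was found for 2702 of the higher genes (12.4% of those tested) and 2618 of the lower ones (12%). At the far end, 106 genes were at least 64-fold higher at noon and 40 at least 64-fold lower. With replicates 2 and 3 alone, 9495 genes were called. In this bulk tissue, fewer cells of a type and less RNA per cell cannot be told apart.

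Placed in the 6 hours sampled in OE, the genes at least 2-fold higher at noon had their highest mean at 8:00 in 1081 cases (40.0%), at 12:00 in 1082 (40.0%) and at 16:00 in 536 (19.8%), beside 25.5%, 11.5% and 24.02% of all genes tested. Their lowest mean fell at 20:00 in 993 cases (36.8%), at 0:00 in 772 (28.6%) and at 4:00 in 623 (23.1%), beside 13.6%, 9.99% and 12.1% of all genes tested. Genes at least 2-fold lower at noon were lowest at 12:00 in 1475 of 2618 cases (56.3%) and highest at 0:00 in 1297 (49.5%), beside 16.2% and 14.03% of all genes tested. These are descriptions of the same libraries that gave the calls. Choosing genes by 12:00 against 0:00 bars 12:00 as the highest hour of the lower genes and 0:00 as their lowest. The reverse holds for the higher genes. The shares at other hours are thereby raised, so those of all genes tested are not a like comparison.

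The lists held 121 members of known function in the files, and 109 of them passed the filter on low counts. Of these 109, 47 were higher at noon, 21 were lower and 41 were not called, beside 20.2% of all genes tested higher and 20.6% lower. The median log2 difference was 0.24 beside −0.03 over all genes tested. The 12 members that were not tested had at most 10 counts in the 3 noon libraries together. The lists were small and chosen with earlier results known, so the counts describe these members and say nothing of the pathways as a whole. The same shares of all genes tested, 20.2% higher and 20.6% lower, apply beside the counts of every list below. How many of all genes tested had hours that did not overlap was not counted, so separate hours describe only named genes.

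**Figure D1:**
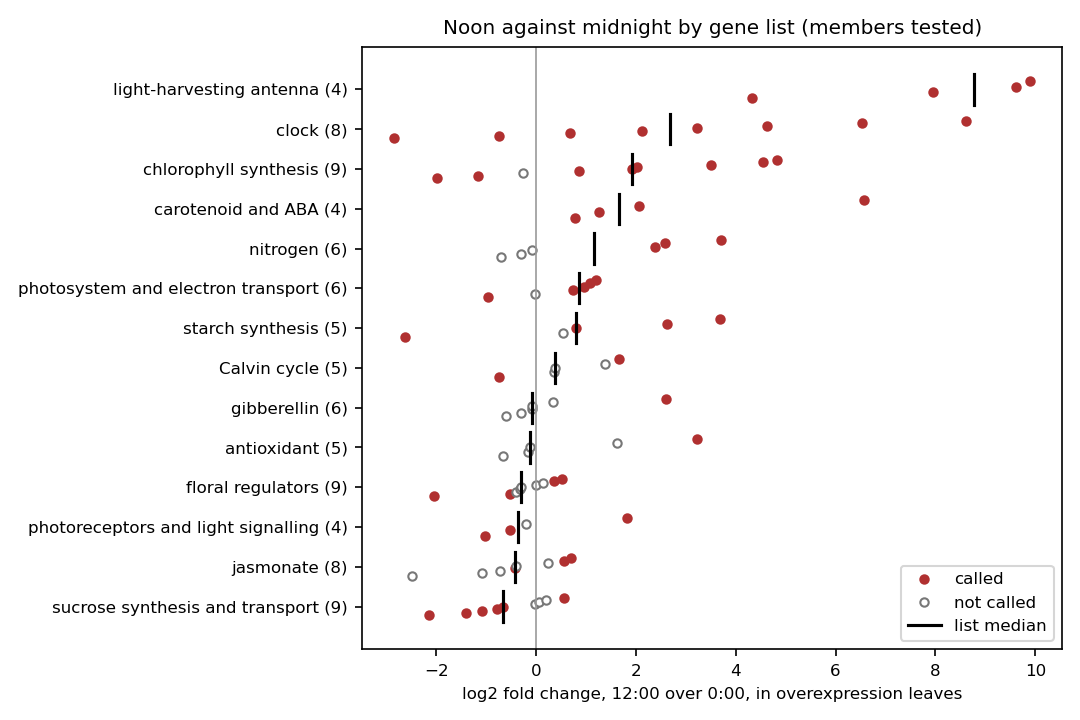
Each point is 1 tested list member, placed by its log2 difference of 12:00 over 0:00 in overexpression leaves, for lists with at least 4 tested members (number in brackets). Filled points passed the adjusted threshold, open points did not, and black bars mark list medians. All 4 antenna genes lie at 4.33 or above, while 5 of 9 sucrose genes are called below 0.

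OsPRR37 was first looked at in every library, as the check of the genotype labels. OsPRR37 (OS07G0695100, chromosome 7, 29616564 to 29629218 on IRGSP-1.0) stood at 1524, 1436 and 1485 CPM in the OE libraries at noon and at 854, 985 and 945 CPM at midnight. In GL it stood at 421, 441 and 505 CPM at noon and at 4.31, 3.82 and 3.81 CPM at midnight. Every OE library was thus above every GL library of either hour, and the deposited counts do not separate the transgene from the resident gene. Within OE the level was 1.60-fold higher at noon, a log2 difference of 0.68 ± 0.16 (SE, n = 3 per hour, edgeR adjusted p = 9.34e-04), and the hours did not overlap. Each SE of a log2 difference was worked back from the F statistic of edgeR's fit. It is not the spread of the 3 libraries per hour. In GL the log2 difference was 6.84, and the difference between the genotypes was −6.16 ± 0.25 (SE, edgeR adjusted p = 2.7e-16).

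All 8 clock genes differed between the hours, 6 higher and 2 lower at noon, with a median log2 difference of 2.67. The widest difference was that of OsPRR95, a pseudo-response regulator, at 568, 371 and 365 CPM at noon and 0.814, 1.14 and 1.33 CPM at midnight. That is 391-fold, a log2 difference of 8.61 ± 0.28 (SE, edgeR adjusted p = 2.81e-19). The noon libraries lay far above the midnight libraries, where the gene was close to 1 CPM.

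OsPRR73, another pseudo-response regulator, stood at 985, 799 and 828 CPM at noon and at 9.77, 9.62 and 8.73 CPM at midnight, a log2 difference of 6.54 ± 0.19 (SE). OsGI, the rice GIGANTEA gene, which acts in day length sensing, stood at 1793, 1389 and 1432 CPM at noon and at 62.6, 74.3 and 50.1 CPM at midnight, a log2 difference of 4.62 ± 0.22 (SE). The 3 libraries of each hour kept close together for both genes, and the edgeR adjusted p were 3.27e-20 and 5.2e-16. OsLHY, a MYB regulator of the morning loop, stood at 325, 390 and 400 CPM at noon and at 52.2, 29.8 and 37.1 CPM at midnight, a log2 difference of 3.23 ± 0.31 (SE, edgeR adjusted p = 1.21e-09). OsPRR1, the rice relative of Arabidopsis TOC1, was 4.34-fold higher at noon, with means of 77.1 ± 12.6 and 17.7 ± 2.10 CPM (SD, n = 3 each). Neither gene's hours overlapped.

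The 2 clock genes that were lower at noon both belong to the evening complex. OsLUX, its DNA-binding part, stood at 3.96, 3.57 and 4.00 CPM at noon and at 34, 27.4 and 21.5 CPM at midnight, a log2 difference of −2.84 ± 0.35 (SE, edgeR adjusted p = 1.54e-07). The scaffold gene OsELF3-1 fell less, from a mean of 178 ± 14.3 CPM at midnight to 106 ± 4.56 CPM at noon (SD, n = 3 each), a log2 difference of −0.74 ± 0.13 (SE, edgeR adjusted p = 2.53e-05). Both sets of libraries were separate. Apart from OsPRR37, the clock gene with the smallest adjusted p for a difference between OE and GL was OsPRR95, which missed the threshold at −1.01 ± 0.37 on the log2 scale (SE, edgeR adjusted p = 0.59). In OE the highest of the 6 hourly means fell at 16:00 for OsPRR37, OsPRR95, OsPRR1, OsGI and OsLUX, at 12:00 for OsPRR73, at 8:00 for OsLHY and at 4:00 for OsELF3-1.

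**Figure D2:**
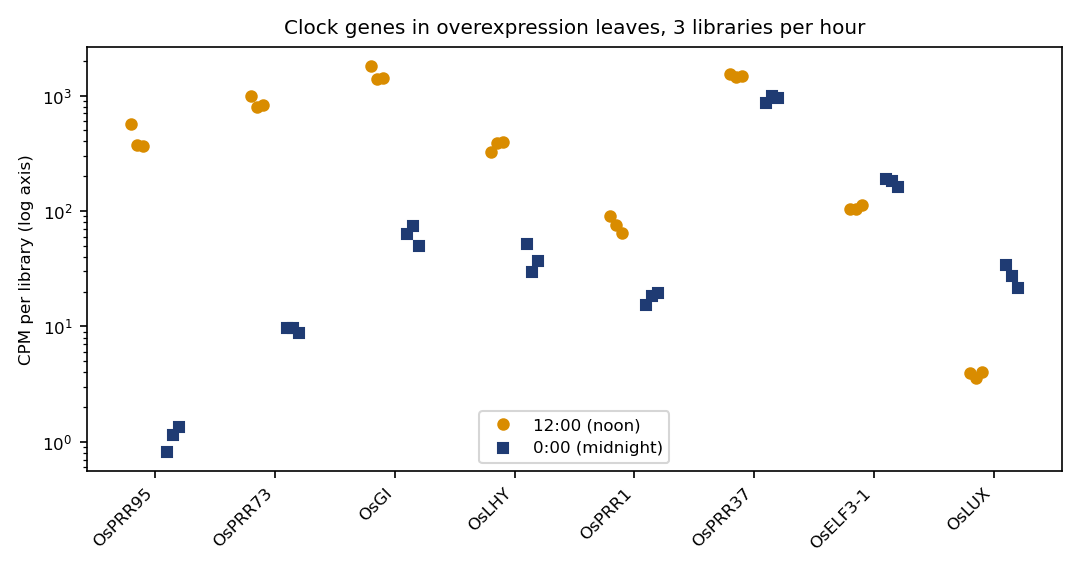
Level of 8 clock genes in each overexpression library in CPM on a log axis, with 12:00 as circles and 0:00 as squares, replicates 1 to 3 from left to right. The hours are separate for every gene, by the widest gap for OsPRR95 and with OsPRR37 high at both hours.

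Among 9 tested floral regulators, 2 were higher at noon, 2 were lower and 5 were not called, with a median log2 difference of −0.30. Both counts were near the shares of 20.2% higher and 20.6% lower over all genes tested. Hd1, a CONSTANS-type regulator that represses flowering in long days and promotes it in short days, stood at 3.52, 2.85 and 2.59 CPM at noon and at 14.7, 11.7 and 10.4 CPM at midnight. Its log2 difference was −2.05 ± 0.32 (SE, edgeR adjusted p = 5.28e-06), and the hours did not overlap. OsMADS56, a SOC1-type MADS gene, was higher at noon, at 312 ± 15.9 against 218 ± 18.8 CPM (SD, n = 3 each; log2 difference 0.52, edgeR adjusted p = 0.00266). OsMADS18, an AP1-type MADS gene, was 1.27-fold higher (edgeR adjusted p = 0.0247) and OsMADS50, a SOC1-type activator of flowering, was 1.45-fold lower (edgeR adjusted p = 0.0248).

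OsMADS18 and OsMADS50 lay close to the threshold. OsMADS18, at 0.35 on the log2 scale, missed it at 0.32 without midnight replicate 1 (edgeR adjusted p = 0.0751), at 0.29 without noon replicate 2 (0.105) and at 0.31 with replicates 2 and 3 alone (0.0999). With all libraries of the contrast kept it also missed it under upper-quartile scaling (0.0694), with the 6 libraries alone (0.0858), with the 18 OE libraries alone (0.0766) and in both limma fits on FPKM (0.0599 and 0.0601). OsMADS50, at −0.53, missed it at −0.47 without noon replicate 1 (edgeR adjusted p = 0.0960), −0.49 without midnight replicate 1 (0.0732), −0.53 without noon replicate 3 (0.0571) and −0.52 without midnight replicate 3 (0.0589), and in both limma fits (0.0541 and 0.0564). Of the members not called, OsMADS15 was listed at 0 in all 6 OE libraries, and OsMADS14 and Ehd2 lay between 0.281 and 2.28 CPM in every one of them. DTH8 and Hd16 had log2 differences of −0.30 and 0.13.

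Of 4 photoreceptor and light signalling genes, 1 was higher at noon and 2 were lower, beside 20.2% higher and 20.6% lower over all genes tested. Se5, the heme oxygenase that makes the phytochrome chromophore, stood at 366, 300 and 364 CPM at noon and at 135, 75.8 and 78.9 CPM at midnight, a 3.56-fold difference (log2 1.83 ± 0.25 SE, edgeR adjusted p = 5.77e-07). The red and far-red light receptor genes OsPHYA and OsPHYB were lower at noon, by log2 differences of −0.53 (edgeR adjusted p = 0.00133) and −1.02 (0.00395). The hours were separate for Se5 and OsPHYA and overlapped for OsPHYB, whose noon replicate 1 (176 CPM) lay above its midnight replicate 3 (166 CPM). With the 6 libraries alone OsPHYB missed the threshold (edgeR adjusted p = 0.0516). OsPHYC, at −0.21, was not called.

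The antenna list had the highest median of all lists. All 4 placed members, Lhcb1.1, Lhcb1.2, Lhcb2 and Lhcb4, which encode chlorophyll-binding proteins of photosystem II, were higher at noon, with a median log2 difference of 8.78. Together they took 4.36%, 3.63% and 4.21% of all counts in the 3 noon libraries and 0.0860%, 0.0534% and 0.0641% in the 3 midnight libraries. The noon and midnight shares did not overlap. In length-scaled units Lhcb2 was the most abundant of the 4 at noon, at a mean of 23898 FPKM, ahead of Lhcb1.2 at 18269, Lhcb4 at 13549 and Lhcb1.1 at 11889 FPKM.

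Lhcb1.1 stood at 8896, 8405 and 9643 CPM at noon and at 5.13, 4.95 and 18.2 CPM at midnight, a log2 difference of 9.90 ± 0.51 (SE, edgeR adjusted p = 3.39e-15). Lhcb2 stood at 17632, 10248 and 12963 CPM at noon and at 12.4, 7.85 and 32 CPM at midnight, a log2 difference of 9.61 ± 0.51 (SE, edgeR adjusted p = 6.06e-15). Lhcb1.2 stood at 16542, 10741 and 13344 CPM at noon and at 14.7, 40.7 and 109 CPM at midnight, a log2 difference of 7.95 ± 0.64 (SE, edgeR adjusted p = 3.92e-11). Midnight replicate 3 was the highest midnight library for these 3 genes, and without it their log2 differences were 10.80, 10.40 and 8.93. Lhcb4, which the name table lists as RCABP69, kept a mean of 507 ± 236 CPM at midnight against 10199 ± 1624 CPM at noon (SD, n = 3 each), a 20.1-fold difference. Lhcb1.1 and Lhcb1.2 can share reads, so their separate levels are uncertain.

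Photosystem and electron transport genes moved far less than the antenna. Of 6 tested, 4 were higher at noon and 1 was lower, with a median of 0.85, and together they took 1.19% to 1.27% of counts at noon and 1.06% to 1.13% at midnight. PetE, the copper protein plastocyanin, was 2.30-fold higher at noon (log2 1.2 ± 0.24 SE, edgeR adjusted p = 2.04e-04). PsaH, a subunit of photosystem I, was 2.12-fold higher (edgeR adjusted p = 9.09e-05) and PsbQ, of the oxygen-evolving complex, 1.96-fold higher (0.00191). LFNR1, the leaf ferredoxin reductase that makes NADPH, went the other way, from 2497, 1869 and 1600 CPM at midnight to 1242, 954 and 882 CPM at noon (log2 −0.95 ± 0.21 SE, edgeR adjusted p = 6.21e-04). All 4 genes, named for the smallest adjusted p of their list, had separate hours. The remaining higher member, named after its values were seen, was the ferredoxin gene Fd1, at 0.74 ± 0.25 (log2, SE, edgeR adjusted p = 0.0195), and it missed the threshold with replicates 2 and 3 alone (0.56, 0.115), without noon replicate 1 (0.63, 0.072) and with the 18 OE libraries alone (0.73, 0.0562).

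**Figure D3:**
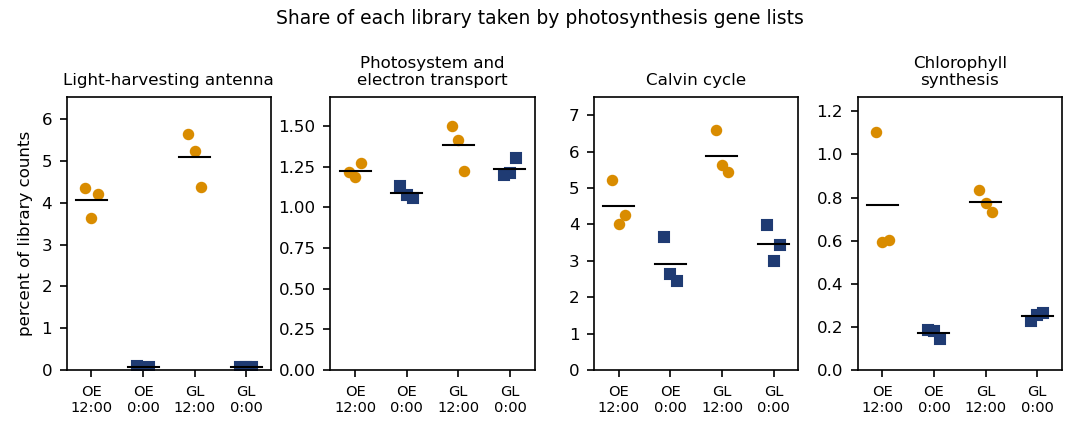
Percent of each library's counts taken by 4 gene lists in OE and GL at 12:00 (circles) and 0:00 (squares), with black bars for group means of 3 libraries and each axis starting at 0. The antenna share is near 0 at midnight and between 3.63% and 4.36% in OE at noon, while the photosystem share stays between 1.06% and 1.27% in OE.

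Of 5 Calvin cycle genes tested, 1 was higher at noon, 1 was lower and 3 were not called (median 0.39), each count near the shares of 20.2% higher and 20.6% lower over all genes tested. FBA, the aldolase, stood at 18946, 12771 and 15253 CPM at noon and at 7451, 3675 and 3796 CPM at midnight, a 3.15-fold difference (log2 1.65 ± 0.33 SE, edgeR adjusted p = 1.60e-04). The chloroplast fructose bisphosphatase cpFBPase was 1.67-fold lower at noon (edgeR adjusted p = 0.00371), a call that was lost without midnight replicate 1 (0.0669). RBCS2 at 0.39 ± 0.34 and RPE, ribulose phosphate epimerase, at 0.37 ± 0.21 (log2, SE) were not called, with RPE passing only with the replicate number as a block (0.35, edgeR adjusted p = 0.0423).

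RCA, the Rubisco activase, was singled out after its values were seen. It stood at 26584, 17012 and 20264 CPM at noon and at 11776, 7037 and 5886 CPM at midnight, hours that did not overlap. The test gave a log2 difference of 1.37 ± 1.85 (SE, edgeR adjusted p = 0.597), an error far wider than the spread within these 6 libraries. With the 6 libraries alone the difference was 1.36 ± 0.39 (SE, edgeR adjusted p = 0.03), so RCA was called there. The fit over 36 libraries also holds 8:00, where RCA was listed at 0 in every OE and GL library, and 4:00, where its OE mean was 10857 ± 10567 CPM (SD, n = 3). Of the photorespiration and catalase genes, GDCH, the H protein of glycine decarboxylase, was 2.22-fold lower at noon (edgeR adjusted p = 9.68e-04), and the catalase genes OsCATA and OsCATB were not called.

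Chlorophyll synthesis genes were mostly higher at noon, with 6 of 9 higher, 2 lower and 1 not called (median 1.91). CHLH, the large subunit of magnesium chelatase, stood at 8253, 3273 and 3596 CPM at noon and at 287, 218 and 141 CPM at midnight, a log2 difference of 4.55 ± 0.41 (SE, edgeR adjusted p = 4.61e-10). OsPORA and OsPORB, the light-dependent protochlorophyllide reductases, were 28.5-fold and 11.3-fold higher at noon (edgeR adjusted p = 8.80e-07 and 1.91e-11). Noon replicate 1 was the highest noon library for all 3 genes, at 558 CPM for OsPORA beside 303 and 329 CPM in replicates 2 and 3, and no noon library overlapped with midnight. With replicates 2 and 3 alone the difference of OsPORA was 4.20 on the log2 scale, against 4.83 with all 3. CHLG, which attaches the phytol tail in the last step, went the other way, from 198, 155 and 138 CPM at midnight to 42.4, 40.4 and 40.9 CPM at noon (log2 −1.99 ± 0.23 SE, edgeR adjusted p = 3.13e-08). The second gene with a fall, named after its values were seen, was CHLD, another subunit of magnesium chelatase, at −1.16 ± 0.29 (SE, edgeR adjusted p = 0.00189). The higher count includes CHLI, also named after its values were seen, at 0.85 (log2, edgeR adjusted p = 0.0395). Its call was lost without noon replicate 1 (0.34, 0.438), midnight replicate 2 (0.107) or midnight replicate 3 (0.157). It was also lost under upper-quartile scaling (0.0623) and in both limma fits (0.0535 and 0.0549). With the 6 libraries alone its edgeR adjusted p was 0.138, and with the 18 OE libraries alone 0.0902.

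Starch synthesis and breakdown genes were both called higher at noon in most members tested. Of 5 starch synthesis genes tested, 3 were higher and 1 was lower (median 0.80), while GBSSI and SSIIa were below the filter. SSI, a soluble starch synthase, stood at 181, 154 and 133 CPM at noon and at 9.85, 12.6 and 13.8 CPM at midnight, a 12.8-fold difference (log2 3.68 ± 0.31 SE, edgeR adjusted p = 1.25e-10). The leaf starch synthase gene SSIIb was 6.14-fold higher (edgeR adjusted p = 2.38e-09) and the branching enzyme gene BEI 1.74-fold higher (3.21e-06). ISA1, an isoamylase that trims branches of the growing glucan, stood at 5.39, 9.74 and 6.38 CPM at noon and at 50, 49.8 and 33.6 CPM at midnight, a log2 difference of −2.62 ± 0.25 (SE, edgeR adjusted p = 1.66e-09). For these 4 genes, named for the smallest adjusted p of their list, the hours were separate.

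The 3 starch breakdown genes were all higher at noon (median 1.43). DPE1 and DPE2, disproportionating enzymes that act on maltotriose and maltose, were 4.20-fold and 2.69-fold higher (edgeR adjusted p = 4.59e-09 and 2.52e-05). PWD, a dikinase that phosphorylates glucan, was 1.45-fold higher (edgeR adjusted p = 0.0336), and its call was lost without noon replicate 1 (0.153), midnight replicate 2 (0.0549) or midnight replicate 3 (0.194). It was also lost under upper-quartile scaling (0.0713), with the 6 libraries alone (0.109), with the 18 OE libraries alone (0.0547) and in both limma fits (0.0693 and 0.0705).

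Sucrose genes leaned the other way, with 5 of 9 tested lower at noon, 1 higher and 3 not called (median −0.66). cyFBPase, the cytosolic fructose bisphosphatase of sucrose synthesis, stood at 520, 442 and 458 CPM at noon and at 2609, 1887 and 1801 CPM at midnight, a 4.43-fold fall (log2 −2.15 ± 0.20 SE, edgeR adjusted p = 9.11e-10). The sugar exporter SWEET14 was 2.65-fold lower (edgeR adjusted p = 6.30e-04) and the sucrose synthase SUS4 2.12-fold lower (1.71e-05). SUT4, a sucrose transporter, was 1.48-fold higher at noon (edgeR adjusted p = 0.00277). The count of lower members was 3 without midnight replicate 2, without noon replicate 3, with the 6 libraries alone and in both limma fits. It was 4 under median-ratio scaling, without a filter and with the 18 OE libraries alone. Leaving out noon replicate 1, noon replicate 2 or midnight replicate 1 also gave 4. Calls were lost by SUT1 and SUS1, both named after their values were seen, at −0.66 and −0.79 (log2, edgeR adjusted p = 0.0482 and 0.0156). In the limma fit on log2(FPKM + 1) they stood at −0.60 (0.0815) and −0.21 (0.666).

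Of 6 tested nitrogen genes, 3 were higher at noon and 3 were not called (median 1.15), beside 20.2% of all genes tested higher. The cytosolic glutamine synthetase GS1;1 held a narrow spread, at 421, 415 and 417 CPM at noon and 86.6, 78.3 and 76.0 CPM at midnight (log2 2.38 ± 0.18 SE, edgeR adjusted p = 7.82e-12). AMT1;1, an ammonium transporter, was 6.01-fold higher and NADH-GOGAT2, a glutamate synthase, 13-fold higher (edgeR adjusted p = 4.09e-09 and 2.09e-08). GS1;2 stood at 44.5 ± 14.9 CPM at noon and 72.6 ± 19 CPM at midnight (SD, n = 3 each), with overlapping libraries and an edgeR adjusted p of 0.104. With the replicate number as a block its log2 difference was −0.73 (edgeR adjusted p = 0.0137), and without noon replicate 3 it was −0.98 (0.0483).

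The 4 carotenoid and abscisic acid genes were all higher at noon (median 1.65). ZEP, zeaxanthin epoxidase of the xanthophyll cycle, stood at 1672, 1360 and 1229 CPM at noon and at 16.86, 13.03 and 15.2 CPM at midnight, a 94.6-fold difference (log2 6.56 ± 0.19 SE, edgeR adjusted p = 2.98e-20). On this scale the difference was close to that of OsPRR73. The phytoene synthase genes PSY2 and PSY1 were 4.15-fold and 1.70-fold higher (edgeR adjusted p = 2.19e-06 and 0.0168), and NCED3, of abscisic acid synthesis, was 2.39-fold higher at about 2 CPM (0.0376). The call of PSY1 was lost without noon replicate 1 (edgeR adjusted p = 0.164) or midnight replicate 3 (0.114), with the 6 libraries alone (0.103) and with the 18 OE libraries alone (0.0509). That of NCED3 was lost without noon replicate 1 (0.129), midnight replicate 2 (0.0843), noon replicate 3 (0.0963) or midnight replicate 3 (0.117), with replicates 2 and 3 alone (0.0787), with the 6 libraries alone (0.0561) and in both limma fits (0.0781 and 0.0533).

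In the gibberellin list 1 of 6 tested members was called, beside 40.8% of all genes tested: SD1, the gibberellin 20-oxidase gene of the green revolution, at 3.63, 5.47 and 10.1 CPM at noon and 0.163, 1.82 and 1.04 CPM at midnight (log2 2.61 ± 0.62 SE, edgeR adjusted p = 0.00111). Without midnight replicate 2 its difference was 3.38. The others had log2 differences between −0.60 and 0.34, the highest being that of SLR1, the DELLA repressor, which passed only with the replicate number as a block (0.34, edgeR adjusted p = 0.0386). OsKAO, of gibberellin synthesis, and GID1, the gibberellin receptor, were called lower at noon with replicates 2 and 3 alone (−0.70 and −0.38, edgeR adjusted p = 0.0419 and 0.0421). GID1 was also called lower under upper-quartile scaling (−0.36, edgeR adjusted p = 0.0418).

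In the jasmonate list 2 of 8 tested were higher at noon, 1 was lower and 5 were not called, a share called near the 40.8% of all genes tested. OsAOC, allene oxide cyclase, was 1.61-fold higher (edgeR adjusted p = 8.50e-06) and OsJAR1, which joins jasmonate to isoleucine, 1.46-fold higher (0.00139). OsOPR7, a reductase of jasmonate synthesis, was 1.34-fold lower (edgeR adjusted p = 0.0093), a call lost without midnight replicate 3 (0.129) and with the 6 libraries alone (0.0805). The receptor gene OsCOI1a, at 0.24 ± 0.10 on the log2 scale (SE, edgeR adjusted p = 0.0516), passed with the replicate number as a block (0.0365), without noon replicate 2 (0.0475) and without midnight replicate 3 (0.00448). With all libraries kept it also passed with DESeq2 (0.0146), median-ratio scaling (0.0377) and a minimum of 1 CPM in 3 libraries (0.0498). Both limma fits passed it too (0.0402 and 0.0397). OsAOS2, an allene oxide synthase named after its values were seen, had a log2 difference of −2.48 ± 1.09 (SE, edgeR adjusted p = 0.0707) and passed with the block (−2.27, 0.0352), with replicates 2 and 3 alone (−2.84, 0.0128) and without midnight replicate 1 (−2.93, 0.0373).

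Both tested heat shock genes were called higher at noon. OsHsfA2c, a heat shock factor, stood at 32.5, 30.8 and 34.4 CPM at noon and at 8.79, 9.10 and 8.95 CPM at midnight, a 3.64-fold difference with tight replicates (log2 1.86 ± 0.16 SE, edgeR adjusted p = 2.57e-10). The chaperone gene OsHSP101 was 1.93-fold higher (edgeR adjusted p = 0.038), with overlapping libraries and a call lost without noon replicate 1 (0.204), midnight replicate 2 (0.123), noon replicate 3 (0.054) or midnight replicate 3 (0.162). It was also lost under upper-quartile scaling (0.0578), with the 6 libraries alone (0.0854), with the 18 OE libraries alone (0.051) and in both limma fits (0.0787 and 0.0927). The other 3 heat shock genes were below the filter. OsDREB1A and OsDREB1G, cold response factors, were not called; OsDREB1G passed without noon replicate 3 (log2 3.18, edgeR adjusted p = 0.0373).

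APX2, a cytosolic ascorbate peroxidase, was the only called member of 5 antioxidant genes, beside 40.8% of all genes tested. It stood at 1833, 2124 and 1988 CPM at noon and 196, 203 and 239 CPM at midnight (log2 3.22 ± 0.15 SE, edgeR adjusted p = 7.05e-16). cCuZn-SOD1, a cytosolic superoxide dismutase, stood at 346, 137 and 154 CPM at noon and at 97.6, 42.3 and 66.5 CPM at midnight, with replicate 1 the highest at both hours. Its log2 difference of 1.62 ± 0.67 (SE) missed the threshold (edgeR adjusted p = 0.0533), and it passed with the replicate number as a block (1.57, 3.65e-08), with replicates 2 and 3 alone (1.42, 2.29e-05), and without midnight replicate 1 (0.0463) or noon replicate 2 (0.0471). It also passed with DESeq2 (0.0389), the 6 libraries alone (0.0244), the 18 OE libraries alone (0.00813) and both limma fits (0.0397 and 0.0412). cCuZn-SOD2, with 113 CPM in noon replicate 1 beside 24 and 29.4 CPM in replicates 2 and 3, passed with the block (−0.72, edgeR adjusted p = 0.00666) and with replicates 2 and 3 alone (−0.87, 0.0195).

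The chlorophyll breakdown genes of the senescence list moved both ways. SGR, the magnesium dechelatase known as stay-green, stood at 8.46, 25.7 and 22.1 CPM at noon and at 5.94, 5.18 and 6.21 CPM at midnight, a 3.26-fold difference (edgeR adjusted p = 1.80e-06). NYC1 and NOL, which act together as chlorophyll b reductase, were 1.69-fold and 1.61-fold lower (edgeR adjusted p = 0.00187 and 6.25e-04). OsNPR1, a regulator of salicylate defence, had a log2 difference of −0.92 ± 0.49 (SE, edgeR adjusted p = 0.135), and passed with the replicate number as a block (−1.07, 0.00232) and with replicates 2 and 3 alone (−0.71, 0.00941).

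Of 3 genes of dividing cells, OsPCNA, the replication clamp, was 1.99-fold lower at noon (edgeR adjusted p = 6.31e-05), CYCB1;1, a mitotic cyclin, was 3.00-fold higher (0.0234) and CDKB2;1 was not called. CYCB1;1 was at 2.21 ± 0.113 CPM at noon and 0.735 ± 0.163 CPM at midnight (SD, n = 3 each), and its call was lost without midnight replicate 2 (edgeR adjusted p = 0.0873), noon replicate 3 (0.0522) or midnight replicate 3 (0.0569). The secondary wall genes OsCesA4, OsCesA7 and OsCesA9 had log2 differences of −0.29, −0.81 and −0.70 that missed the threshold (edgeR adjusted p = 0.786, 0.57 and 0.614). OsActin1, often taken as a reference gene, was itself 1.82-fold higher at noon (log2 0.86 ± 0.13 SE, edgeR adjusted p = 4.44e-06), and its log2 difference lay between 0.80 and 0.94 under every alternative tried.

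Outside the lists, among loci with a mean log2 CPM of at least 1 over all libraries and separate hours, the 2 widest rises and 2 widest falls are given by identifier, since the name table gives them no symbol. OS03G0782200 (chromosome 3, 32423336 to 32426776) stood at 591, 253 and 132 CPM at noon and at 0.407, 0.0569 and 0.370 CPM at midnight, a log2 difference of 10.25 ± 0.86 (SE, edgeR adjusted p = 9.03e-11). Without noon replicate 1 that difference was 9.53. OS04G0583900 (chromosome 4, 29500952 to 29504209) had the widest fall among these loci, from 149, 120 and 131 CPM at midnight to 0.879, 0.317 and 0.140 CPM at noon, a log2 difference of −8.35 ± 0.43 (SE, edgeR adjusted p = 3.34e-15), and of −9.12 without noon replicate 1. OS04G0119000 (chromosome 4, 1125690 to 1126669) followed, from 648, 356 and 426 CPM at midnight to 2.09, 2.30 and 1.54 CPM at noon. OS07G0630800 (chromosome 7, 26154133 to 26155347) rose from 6 counts in the 3 midnight libraries together to 3753 at noon.

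The comparison with GL asks where the day to night difference of OE departed from that of its parent. In GL 9154 genes (42%) were called, and 7222 genes were called the same way in both genotypes, which is 81.2% of the OE calls and 78.9% of the GL calls. Another 5 genes were called with opposite signs. The difference of the differences was called for 39 genes (0.179%) by edgeR, for 112 by DESeq2, for 113 with the replicate number as a block and for 109 with replicates 2 and 3 alone. By edgeR, 1185 of the 21772 genes tested had an unadjusted p under 0.05. That is near the share this threshold passes where no gene differs. Of the 39, the OE difference was the smaller in 23 and the larger in 16, and the signs were opposite in 9. The count was 19 without GL midnight replicate 2, 21 without OE noon replicate 2 and 25 without GL midnight replicate 1.

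Among list members the difference of the differences was called for OsPRR37, Hd1 and ISA1. Hd1 (OS06G0275000, chromosome 6, 9336535 to 9338535) stood in GL at 1.08, 0.198 and 0.645 CPM at noon and at 20.4, 15.2 and 16.1 CPM at midnight, a log2 difference of −4.77. The fall in OE, −2.05, was the smaller by 2.72 ± 0.51 (SE, edgeR adjusted p = 0.013), and all 3 OE noon libraries lay above the GL noon libraries. The 3 GL noon libraries together held only 17 counts of Hd1, so the size of its fall in GL is uncertain. ISA1 (OS08G0520900, chromosome 8, 25893171 to 25900743) stood in GL at 2.76, 1.68 and 1.94 CPM at noon and at 59.6, 54.6 and 48.9 CPM at midnight, a log2 difference of −4.68. The fall in OE, −2.62, was the smaller by 2.06 ± 0.38 (SE, edgeR adjusted p = 0.012), again with separate genotypes at noon.

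Both calls were lost with single libraries left out. Without GL noon replicate 2 the value for Hd1 was 2.28 (edgeR adjusted p = 0.0621) and that for ISA1 was 1.92 (0.0512), and without OE noon replicate 2 that for ISA1 was 1.78 (0.0643). Over the 6 hours in OE both genes had their lowest mean at 12:00, of 2.99 CPM for Hd1 and 7.17 CPM for ISA1, and both were also lowest at 12:00 in GL, at 0.642 and 2.13 CPM. The locus OS07G0630800 differed the other way, with 188, 145 and 131 CPM at noon and 5.00, 3.38 and 3.64 CPM at midnight in GL. Its OE difference, 9.45 on the log2 scale, was the larger by 4.19 ± 0.76 (SE, edgeR adjusted p = 0.011). The locus was picked for its wide rise in OE, which favours a larger OE difference, so this value is a description only. Its OE midnight counts, given above, were very low. This comparison with GL was not repeated under the alternatives.

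**Figure D4:**
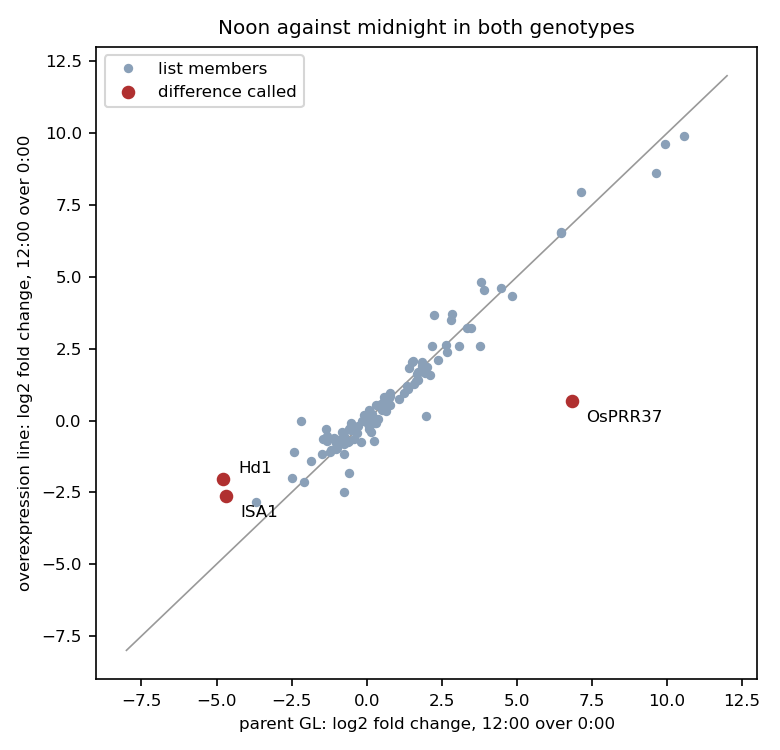
Each point is 1 tested list member, with its log2 difference of 12:00 over 0:00 in GL on the x axis and in OE on the y axis, and the line marks equal values. The 3 red points are the members whose difference departed between the genotypes, OsPRR37 far below the line and Hd1 and ISA1 above it.

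**Figure D5:**
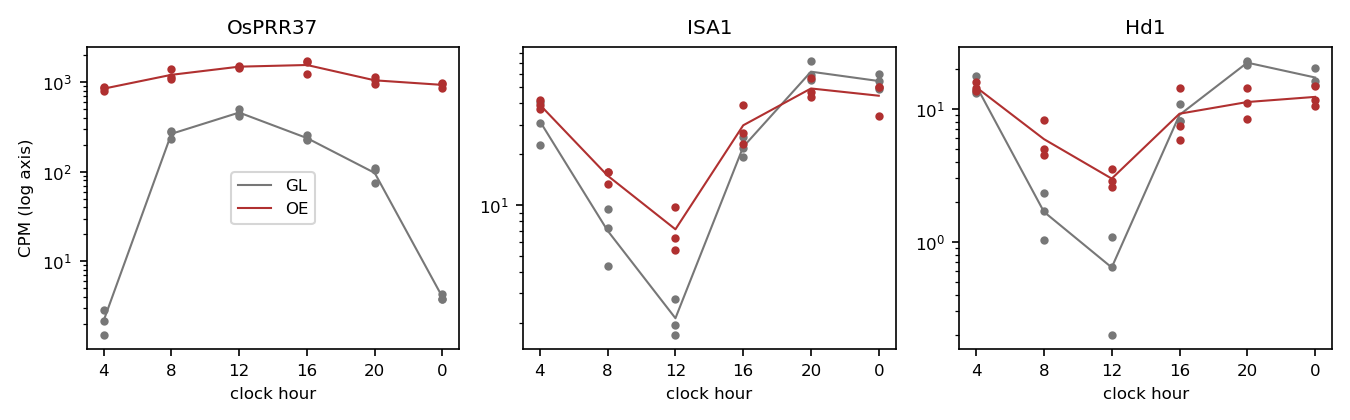
Level in CPM on a log axis over the 6 clock hours in OE and GL for the same 3 genes, with points for libraries and lines for means of 3. OsPRR37 stays above 799 CPM in every OE library, and the genotypes are separate at 12:00 for all 3 genes.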

How the data were processed

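The submitters' processing notes name the tools TopHat2, Cufflinks and Cuffdiff and the build IRGSP-1.0, with versions not given in the sources used here. The 36 deposited files each list 35477 loci. The deposited count column is whole-numbered and was read as estimated counts (expected counts) rounded up by the authors, and the deposited FPKM column is the authors' own scaling. Per the labels' protocols the NEBNext Ultra kit does not mark strand, so reads of genes that overlap or lie antisense were not separable.

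Counts were tested with edgeR 4.0.16 in R 4.3.3. filterByExpr (minimum count 10, minimum total 15) kept 21772 genes, libraries were scaled by TMM, and a quasi-likelihood model of 12 genotype-by-hour groups over 36 libraries gave the contrasts, with p-values adjusted by Benjamini-Hochberg and called under 0.05. Fold changes are fitted values. The SE beside a log2 difference is its absolute value divided by the square root of its F statistic. It is an approximate error of the fit, least exact for large folds. The alternatives were DESeq2 1.42.0, other scalings and filters, subsets of libraries, limma 3.58.1 on log2(FPKM + 1) and log2(FPKM + 0.1), a replicate block and left-out libraries. The procedure was tested on simulated data.

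In OE the same-numbered noon and midnight libraries deviated together (correlations 0.337, 0.155 and 0.195), so the replicate block paired libraries by number. The main test held no replicate term, and its p-values do not use this pairing. Noon replicate 2 also went with midnight replicate 3 (0.194), so the numbers of replicates 2 and 3 are less clearly matched. In GL the correlations were 0.271, 0.182 and −0.02. GL replicate 3 at 0:00 carries the overexpression line in its genotype field. It stayed in GL by its title and touches only the comparison with GL. Its OsPRR37 level was 3.81 CPM, beside 4.31 and 3.82 CPM in GL replicates 1 and 2 and 854 to 985 CPM in OE at midnight.

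The members and lists were chosen with earlier results of these data known. Identifiers of 254 list members came from general knowledge and were checked against a RefSeq table of assembly ASM3414082v1, another build, used for names and places only. It placed 121 names, which were kept. It held no name for 90, contradicted 7 and placed 14 differently, and 22 were not found in the files. Dropping the members without a name was decided after noon and midnight values had been seen, on annotation alone, so the lists are shorter than first written. The rule named all tested clock genes, called floral regulators, up to 4 members of each other list with the smallest adjusted p, list members whose difference departed from GL, and up to 2 loci each way outside the lists with a mean log2 CPM of at least 1. Sequences were not used here.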

Additional observations from a re-analysis of the deposited data

Results flagged for a closer look

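The noon to midnight difference departed between OE and GL for 39 genes by the edgeR test of the difference itself, with OsPRR37, Hd1 and ISA1 among the list members. For OsPRR37 the OE difference minus the GL difference was −6.16 on the log2 scale, with OE libraries between 854 and 985 CPM at midnight and GL libraries between 3.81 and 4.31 CPM. For Hd1, the CONSTANS-type floral regulator, it was 2.72, and for ISA1, the starch debranching enzyme, it was 2.06. In both genes the noon level was the higher in OE in all 3 libraries.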

How the results depend on the processing

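No called result for a gene named by the rule changed direction under any alternative, while APX1, cCuZn-SOD2 and OsCesA4, which were not called, changed sign with 1 library left out. The 8889 calls became 6808 with the 6 libraries alone and 10237 with the replicate block, and lay between 7824 and 8152 with 1 OE library left out. With the replicate block, 8863 of the 8889 genes kept their call and direction. Upper-quartile scaling moved the median log2 difference of all genes to −0.091, with 3989 higher and 4968 lower calls.

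The count of genes whose difference departed between OE and GL, 39, was 112 with DESeq2, 113 with the replicate block and 109 with replicates 2 and 3 alone, and lay between 19 and 39 with 1 library left out; the cause was not tested. It was 40 with median-ratio scaling and 36 without a filter.

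The next numbers cover the genes named by the rule, without the OE difference of OsPRR37, and the 3 list members compared with GL. Over the alternatives other than left-out libraries, 888 values kept their side of the threshold, 26 fell short of it and 23 newly passed it. With 1 OE or GL library left out the numbers were 507, 27 and 6. Genes named after their values were seen (CHLI, CHLD, SUT1, SUS1, Fd1, OsAOS2 and RCA) are not counted, and several of them also lost calls. Apart from the genes whose blocked value stands in the report, the replicate block changed no named call. On the log2(FPKM + 1) scale genes near 0 at an hour gave smaller differences, 7.08 for OsPRR95 and 6.26 for OS07G0630800. With 3 libraries per hour, a member that missed the threshold is not shown to be equal at both hours.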
